A study of Homo sapiens with 8 samples.

Results

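The genes described here are 10 C-type lectin receptor genes of chromosome 12, CLEC4A, CLEC4C, CLEC4D, CLEC4E, CLEC6A, CLEC7A, CLEC12A, CLEC12B, CLEC1A and OLR1. They were given as a list of symbols, which sets no threshold on a measured value, and all 10 were found among the 20098 protein-coding genes of the autosomes and chromosome X in the annotation used. HL-60 is an established human cell line from a promyelocytic leukemia whose cells mature towards granulocytes under all-trans retinoic acid (ATRA). The ATRA group received 1 µM ATRA for 4 days, and the control group received the same volume of ethanol, the solvent of ATRA. A trimethylated and an acetylated lysine of histone H3 (H3K4me3 and H3K27ac) were mapped by ChIP-seq, with 2 replicates per group and mark and therefore 8 libraries. All 8 came from the same line, and the labels do not say how the replicate cultures were kept apart, so the spread between replicates may be technical. No genetic change distinguishes the groups.

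The measurements are the positions of the broad peaks that the authors called in each library. The files hold no read counts, so the depth of a library is unknown. The H3K27ac libraries held between 15457 and 39332 peaks over 28.8 to 86.1 Mb, with the fewest in control replicate 1 and the most in ATRA replicate 2. The H3K4me3 libraries held between 13241 and 16487 peaks over 47.7 to 63.2 Mb. Peaks covered more of the genome in ATRA cells than in control cells, by 0.87 on the log2 scale for H3K27ac and 0.22 for H3K4me3, and each gene is set beside that general increase. Of 9 promyelocyte and myeloid marker genes, 6 had an H3K4me3 peak at the transcription start site (TSS) in both control libraries and 7 in both ATRA libraries, whereas none of 3 T cell markers had an H3K4me3 peak in its window in any library. Markers of other lineages were not all without it. An H3K4me3 TSS peak in at least 1 library was found at 1 of 4 B cell, 1 of 3 erythroid and 1 of 3 megakaryocyte markers. It was also found at 2 of 3 plasmacytoid dendritic cell markers and at 0 of 3 natural killer cell markers. For H3K27ac, 1 of the 3 T cell markers, CD3E, had a TSS peak in both ATRA libraries and in neither control library.

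C-type lectin receptors are membrane proteins with a carbohydrate-recognition type fold, and many of them let myeloid cells sense fungi, mycobacteria or dying cells. Activating members signal through an ITAM, in their own tail or in the adaptor FcRγ (FCER1G), to the kinase SYK and the CARD9, BCL10 and MALT1 complex. Inhibitory members carry an ITIM, which recruits the phosphatases encoded by PTPN6 and PTPN11. H3K4me3 marks active or poised promoters, and H3K27ac marks active promoters and enhancers. The genes lie in a pair of groups on the human build hg19. The Dectin-2 group holds CLEC4C (chr12:7881979-7904201, minus strand), CLEC4A (chr12:8276213-8291203, plus strand), CLEC6A (chr12:8608558-8630926, plus strand), CLEC4D (chr12:8662071-8674962, plus strand) and CLEC4E (chr12:8685901-8693501, minus strand). The Dectin-1 group holds CLEC12A (chr12:10103915-10148293, plus strand), CLEC12B (chr12:10163226-10171395, plus strand), CLEC1A (chr12:10222153-10264226, minus strand), CLEC7A (chr12:10269376-10282857, minus strand) and OLR1 (chr12:10310900-10324737, minus strand). Each gene was measured with 10 kb on each side, and windows that overlap (CLEC4D with CLEC4E, CLEC12A with CLEC12B, CLEC1A with CLEC7A) share peaks.

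The promoters of CLEC4E and CLEC12A are shown, since in H3K4me3 the first was marked in ATRA cells alone and the second carried the longest peak. Each runs from 270 bases before the TSS through the first 30 bases of the transcript, 5′ to 3′ on the strand of the gene, in hg19. Capitals mark matches, on either strand, to motifs of 6 transcription factor families. The motif of PU.1, an ETS factor of myeloid cells, was searched as GAGGAAG. That of the myeloid C/EBP factors was searched as TTGCNNAA, where N is any base, and that of AP-1, the FOS and JUN dimer, as TGANTCA. For the retinoic acid receptor, which binds ATRA, only a half-site, AGGTCA, was searched and not its whole motif. That of RUNX factors was searched as TGTGGT, and that of GATA factors of early blood cells as AGATAA.
CLEC4E (chr12:8693472-8693771, minus strand): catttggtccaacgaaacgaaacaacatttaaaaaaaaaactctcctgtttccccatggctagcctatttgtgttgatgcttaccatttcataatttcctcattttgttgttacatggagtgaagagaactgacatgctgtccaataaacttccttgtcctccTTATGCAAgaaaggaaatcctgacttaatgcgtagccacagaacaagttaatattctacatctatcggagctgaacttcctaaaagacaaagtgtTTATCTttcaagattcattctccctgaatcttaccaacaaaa
CLEC12A (chr12:10123738-10124037, plus strand): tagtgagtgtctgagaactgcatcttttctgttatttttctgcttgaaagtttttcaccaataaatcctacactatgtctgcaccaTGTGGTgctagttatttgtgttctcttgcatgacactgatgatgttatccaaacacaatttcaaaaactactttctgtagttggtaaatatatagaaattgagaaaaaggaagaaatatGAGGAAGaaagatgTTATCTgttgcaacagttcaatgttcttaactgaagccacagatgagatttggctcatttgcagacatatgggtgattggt
The CLEC4E promoter held a C/EBP match that starts 107 bases before the TSS and a GATA match that starts 12 bases before it. The CLEC12A promoter held a PU.1 match that starts 65 bases before the TSS, a RUNX match and a GATA match. Of all 20098 protein-coding promoters of this length, 13.8% held the PU.1 letters, 8.54% those of C/EBP, 5.63% those of AP-1, 11.8% those of the retinoic acid receptor half-site, 10.7% those of RUNX and 7.71% those of GATA. Among the 8 members whose promoters were searched (CLEC4A, CLEC4C, CLEC4E, CLEC6A, CLEC12A, CLEC12B, CLEC1A and OLR1), 4 held PU.1, 2 C/EBP, 1 AP-1, 3 RUNX and 4 GATA letters, and 0 held the retinoic acid receptor half-site letters in this window. These 8 promoters were poor in G and C, with a median of 37.3% against 62.7% over all protein-coding promoters. These matches describe the letters and no binding was measured.

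H3K4me3 at the C-type lectin genes was confined in these 8 libraries to 5 places, 4 near a member's TSS and 1 at the 3′ end of CLEC1A. CLEC4E, which encodes Mincle, a receptor for mycobacterial glycolipid that signals through FcRγ, had an H3K4me3 peak at its TSS in ATRA cells and none in control cells. The peak was 2295 bp long in ATRA replicate 1 (chr12:8692297-8694591) and 257 bp long in ATRA replicate 2 (chr12:8693278-8693534), and both covered the TSS. Both control libraries were listed at 0 bp in the whole CLEC4E window. The groups did not overlap, but the gap of 257 bp between them was smaller than the difference of 2038 bp between the ATRA replicates. A peak within 1 kb of the TSS in both ATRA libraries and neither control library was found for 0.318% of protein-coding genes (64 of 20098), and CLEC4E was the only member among these. In these bulk samples, a mark in more of the cells and a stronger mark in each cell cannot be told apart. The reverse, a TSS peak in both control libraries alone, was found for 0.119% of genes and for 0 members.

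CLEC7A, which encodes the β-glucan receptor Dectin-1, was the other member with more H3K4me3 in ATRA cells. Its length under H3K4me3 peaks was 2576 and 331 bp in ATRA replicates 1 and 2 and 200 and 0 bp in control replicates 1 and 2. The log2 ratio of the means after 1000 bp was added to each was 1.16, with 1.58 between the libraries numbered 1 and 0.41 between those numbered 2, where the control library was at 0 bp. Without ATRA replicate 1 the ratio was 0.28. ATRA replicate 1 stood far above the other 3 libraries, and the gap of 131 bp between the groups was smaller than the 2245 bp between the ATRA replicates. The peak of ATRA replicate 1 covered the TSS and ran into the gene (chr12:10280318-10282893), whereas those of ATRA replicate 2 (chr12:10281774-10282104) and control replicate 1 (chr12:10281750-10281949) lay inside the gene without reaching the TSS.

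CLEC12A, an inhibitory receptor also known as CLL-1 that is found on myeloid and leukemic blast cells, went the other way and had the longest H3K4me3 peak of the cluster in each library. Its length under H3K4me3 peaks was 5497 and 5119 bp in the ATRA replicates and 7338 and 5794 bp in the control replicates, with a log2 ratio of −0.26 (−0.36 and −0.15 between the libraries numbered 1 and 2). Both ATRA libraries lay below both control libraries, and the higher of the ATRA values minus the lower of the control values was −297 bp, a smaller distance than the 1544 bp between the control replicates. The peak covered the TSS in all 4 libraries, and what the controls had beyond both ATRA libraries were edges of 155 bp on its upstream side (chr12:10123236-10123390) and 111 bp on its downstream side (chr12:10128919-10129029), both in introns of CLEC12A.

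The other members showed no separation in H3K4me3. CLEC4D, which encodes the FcRγ-coupled receptor MCL that pairs with Mincle, had a TSS peak in all 4 libraries, with 1514 and 509 bp in the ATRA replicates and 1320 and 518 bp in the control replicates. These values followed the replicate number and not the treatment. The CLEC1A window held 939 and 369 bp in the ATRA replicates and 1131 and 0 bp in the control replicates, in a place at the 3′ end of the gene (chr12:10220959-10222342), and there was no H3K4me3 at its TSS. CLEC4A, an inhibitory ITIM receptor, CLEC4C, a marker of plasmacytoid dendritic cells, CLEC6A, which encodes the fungal receptor Dectin-2, CLEC12B, an inhibitory ITIM receptor, and OLR1, the receptor for oxidized LDL, were listed at 0 bp in all 4 libraries. H3K4me3 was thus higher in both ATRA libraries at 2 of 10 members (CLEC4E and CLEC7A), beside 28.0% of all genes, and lower at 1 (CLEC12A), beside 2.64%. As a share of the total length under peaks of each library, the members counted were 2 higher and 1 lower again, beside 11.0% and 16.9% of all genes. Within both replicate numbers the counts were also 2 and 1, beside 37.4% and 4.69%. A TSS peak in all 4 libraries was found at 2 of 10 members (CLEC12A and CLEC4D) and at 53.0% of all genes, and a TSS peak in ATRA replicate 2 alone at 0 members and 0.199% of genes.

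**Figure D1:**
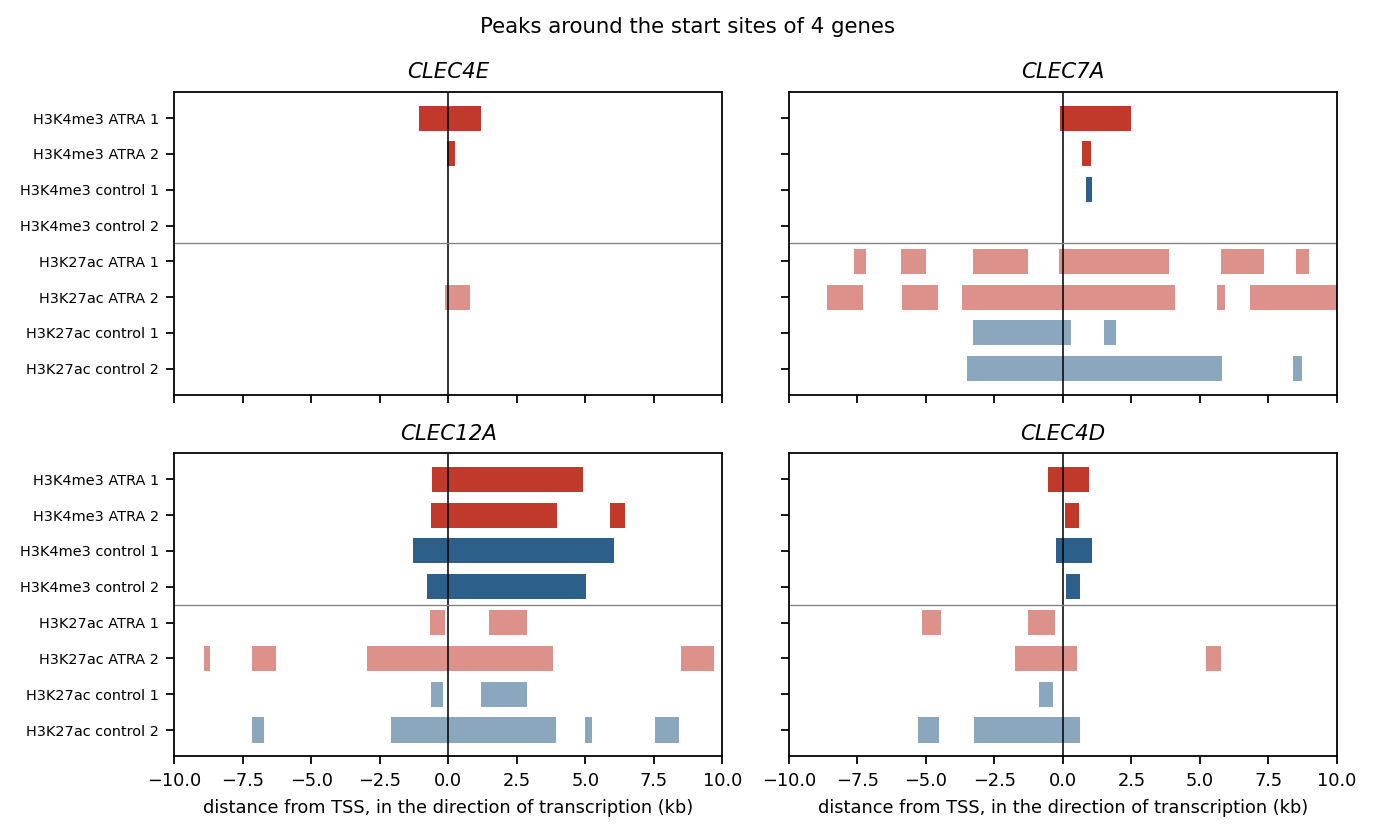
H3K4me3 (full color) and H3K27ac (pale) peaks of each library, ATRA in red and control in blue, within 10 kb of the TSS (vertical line) of CLEC4E, CLEC7A, CLEC12A and CLEC4D, by distance from the TSS in kb along the direction of transcription. CLEC4E has H3K4me3 in both ATRA libraries and in no control library, whereas CLEC12A and CLEC4D carry it in all 4.

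H3K27ac was found in at least 1 library at all 10 members, and it was much less even between replicates. CLEC12B was the only member with more H3K27ac in both ATRA libraries than in both control libraries, with 3298 and 7144 bp in the ATRA replicates and 805 and 2206 bp in the control replicates. The log2 ratio was 1.31, and 1.25 and 1.34 between the libraries numbered 1 and 2. The gap between the groups was 1092 bp, beside 3846 bp between the ATRA replicates. This length did not lie at the CLEC12B TSS, where ATRA replicate 2 alone had a peak. Most of it belonged to a place (chr12:10175755-10184241) that runs past the downstream edge of the window. This place reaches an exon of CLEC9A, a dendritic cell lectin outside the 10 genes. Over its whole length, in part outside the window, it held 4115 and 8197 bp in the ATRA replicates and 805 and 2884 bp in the control replicates. The overlapping window of CLEC9A was separated too, with 7380 and 17470 bp in the ATRA replicates and 2219 and 5801 bp in the control replicates.

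In the other members of the Dectin-1 group the H3K27ac values of the ATRA and control groups overlapped, as ATRA replicate 1 did not exceed control replicate 2. CLEC12A had 6172 and 22405 bp in the ATRA replicates and 2140 and 9542 bp in the control replicates. CLEC7A had 9377 and 14141 bp in ATRA and 4019 and 9657 bp in control cells. In both genes each ATRA library lay above the control library with its own number. CLEC1A, which encodes MelLec, a receptor for fungal melanin, had 2114 and 10260 bp in ATRA and 1414 and 2241 bp in control cells. Most of it belonged to a place (chr12:10217561-10224489) centered 30559 bp downstream of the CLEC1A TSS, which reaches an exon of CLEC9A. That place held 1705 and 6929 bp in ATRA and 1414 and 2068 bp in control cells. The rest in ATRA replicate 1 lay in a peak inside CLEC7A. At the CLEC1A TSS, ATRA replicate 2 alone had a peak. OLR1 had 0 and 6083 bp in ATRA and 0 and 1013 bp in control cells, so its H3K27ac was seen in the libraries numbered 2 only.

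The Dectin-2 group carried less H3K27ac. CLEC4D had 1651 and 4430 bp in the ATRA replicates and 503 and 5393 bp in the control replicates, and its log2 ratio was 0.82 between the libraries numbered 1 and −0.24 between those numbered 2. CLEC4D was the member of this group with a TSS peak in all 4 libraries. CLEC6A had 2326 bp, CLEC4E 1418 bp and CLEC4A 810 bp in ATRA replicate 2 and were listed at 0 bp in the other 3 libraries. CLEC4C had 400 bp in ATRA replicate 2 and 200 bp in control replicate 2, in peaks of 200 bp each, and no peak at its TSS in any library. The H3K4me3 peak that CLEC4E had in both ATRA libraries was thus joined by H3K27ac in ATRA replicate 2 and not in ATRA replicate 1.

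**Figure D2:**
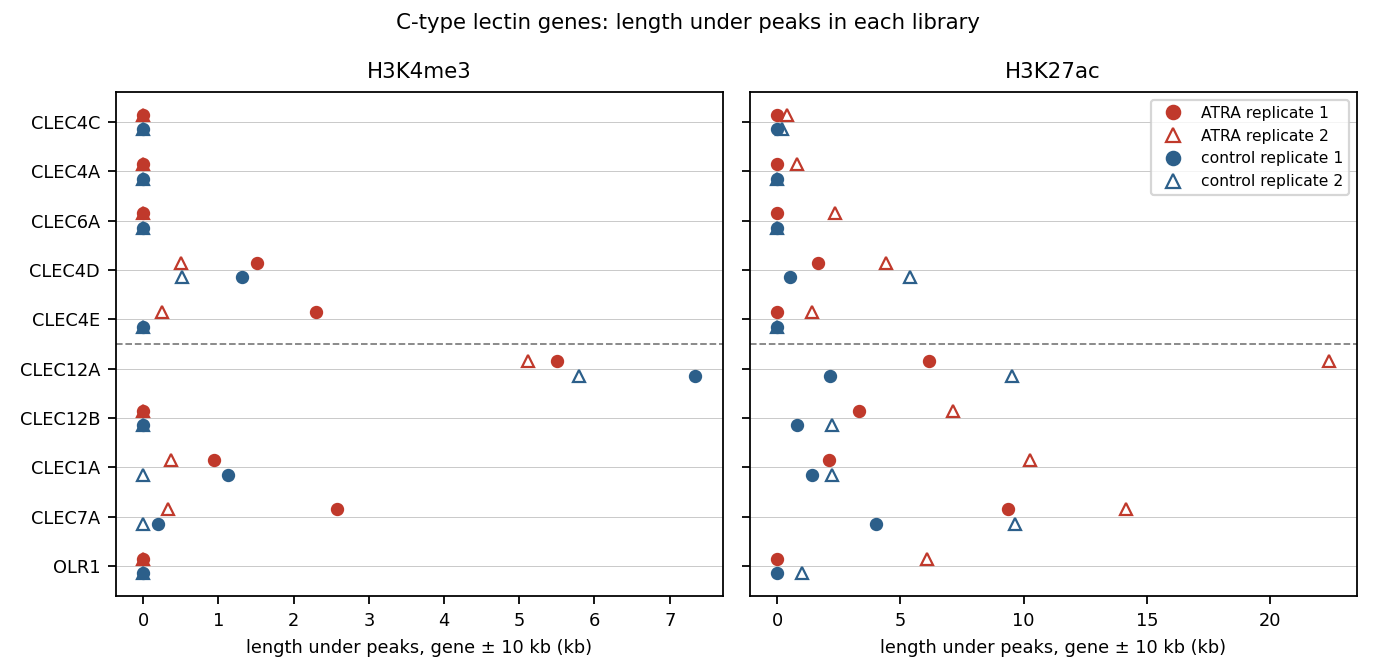
Length under H3K4me3 peaks (left) and H3K27ac peaks (right) in each gene with 10 kb on each side, in kb, for each of the 8 libraries, with ATRA in red, control in blue, replicate 1 as filled circles and replicate 2 as open triangles. The dashed line parts the Dectin-2 group (above) from the Dectin-1 group (below), and in H3K27ac the triangle of ATRA replicate 2 lies farthest right in 9 of the 10 genes.

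Counted over the members, H3K27ac was higher in both ATRA libraries at 1 of 10, beside 30.3% of all genes, and lower at 0, beside 2.86%. The libraries with the same replicate number shared a tag in the deposited peak names and were read as pairs. Within both pairs, H3K27ac was higher at 4 of 10 members (CLEC12A, CLEC12B, CLEC1A and CLEC7A, all of the Dectin-1 group), beside 43.4% of all genes, and lower at 0, beside 5.83%. With lengths scaled to the library totals, only CLEC12A and CLEC12B stayed higher within both pairs. Scaled, CLEC1A had 1905.3 bp in ATRA replicate 1 against 2869.3 in control replicate 1. CLEC7A had 9591.8 bp in ATRA replicate 2 against 10458.5 in control replicate 2. As a share of the library total, CLEC12B alone was higher, beside 12.9% of all genes, and 0 members were lower, beside 18.5%. None of these counts of members with more H3K27ac stood above the share of all genes. At the TSS, 0 members had H3K27ac in both ATRA libraries and neither control library, beside 2.51% of all genes, and 0 had the reverse, beside 0.279%. A TSS peak in ATRA replicate 2 and in no other library was found at 6 of 10 members (CLEC4A, CLEC6A, CLEC4E, CLEC12B, CLEC1A and OLR1), beside 2.66% of all genes. The peaks of CLEC6A, CLEC12B, CLEC1A and OLR1 lay within 1 kb of the TSS without covering it. Of the 6, only the peak of CLEC4A had a −log10 q of at least 5 (6.69), and the lowest was 0.795 at CLEC1A. A TSS peak in all 4 libraries was found at 3 of 10 (CLEC12A, CLEC4D and CLEC7A), beside 34.8%. ATRA replicate 2 was also the library with the most H3K27ac peaks over the genome, and the part of its depth in these TSS peaks was not tested.

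The median log2 ratio of H3K27ac was 0.94 over the 10 members and 0.18 over all 20098 genes, or 0.45 over the 14622 genes with a peak in a library. Of the 10 members, CLEC4A, CLEC6A and CLEC4E had no H3K27ac in either control library, so their ratios are set by the 1000 bp added. With lengths taken as a share of the library total, the medians were 0.51 over the members and 0 over all genes. The member median of H3K27ac rested on 1 library, since it was 0 without ATRA replicate 2, and it was also 0 with −log10 q of at least 5. For H3K4me3 the median was 0 over the members, 5 of which had no peak, and 0.043 over all genes.

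**Figure D3:**
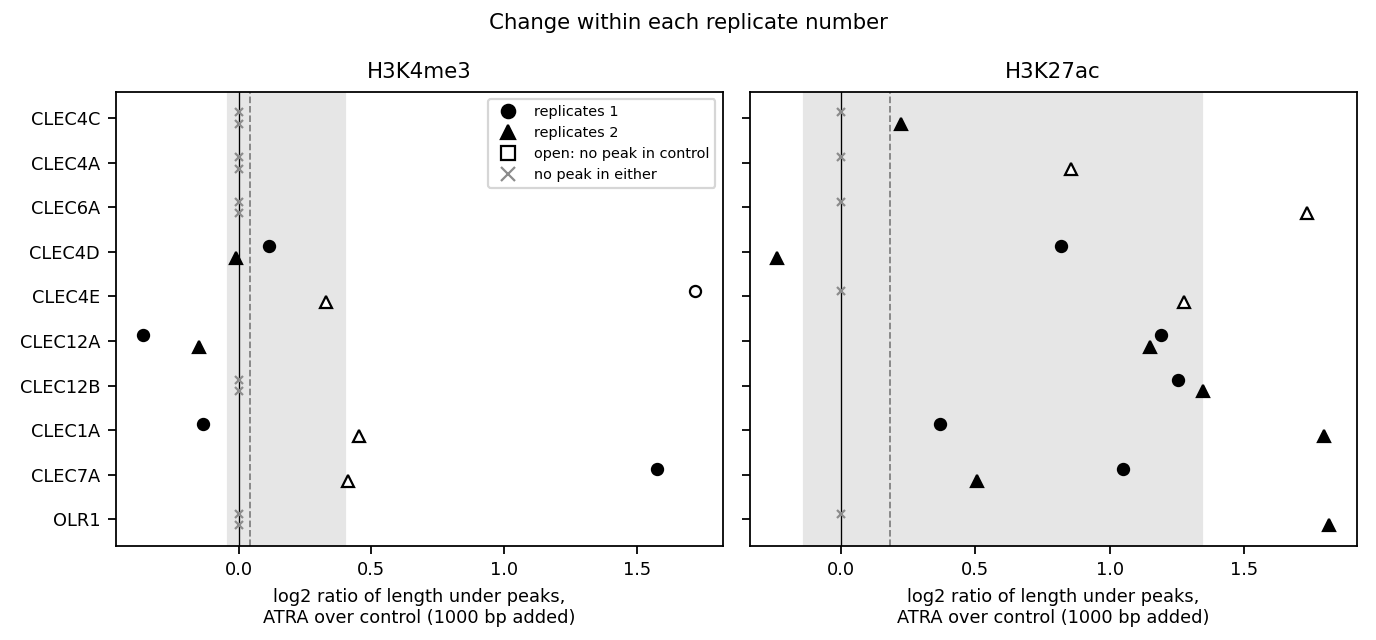
Log2 ratio of peak length (ATRA over control, 1000 bp added to each) in each gene with 10 kb on each side, between the libraries numbered 1 (circles) and those numbered 2 (triangles). Open symbols mark a control library at 0, whose ratio depends on the bp added, crosses mark pairs with no peak, the gray band spans the 10th to 90th percentile over all 20098 protein-coding genes for the mean ratio, and the dashed line is their median. In H3K4me3 CLEC12A lies left of 0 in both pairs, and in H3K27ac CLEC12A, CLEC12B, CLEC1A and CLEC7A lie right of 0 in both.

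When overlapping windows were merged, the 10 genes took up 373038 bp. H3K27ac peaks covered 22203 and 67233 bp of these in the ATRA replicates and 8881 and 29692 bp in the control replicates, that is 5.95% and 18.0% against 2.38% and 7.96%. The log2 ratio of the means was 1.17 (1.23 and 1.15 between the libraries numbered 1 and 2). For the genome it was 0.87 (1.17 and 0.68 between the libraries numbered 1 and 2). The excess over the genome thus lay mainly between the libraries numbered 2. With each library scaled to its total, the ratio of the 10 genes was 0.37. ATRA replicate 1 lay below control replicate 2, so the groups overlapped, and the exact two-sided permutation test over the 4 libraries gave p = 0.667, where 2 against 2 libraries allow no p below 0.33. H3K4me3 covered 12821 and 6585 bp in the ATRA replicates and 9989 and 6312 bp in the control replicates, with a log2 ratio of 0.23 beside 0.22 for the genome (exact two-sided permutation test, p = 0.667). The Dectin-1 group held most of the H3K27ac, with 20552 and 58374 bp in ATRA and 8378 and 24099 bp in control cells, a log2 ratio of 1.23. The Dectin-2 group held 1651 and 8859 bp in ATRA and 503 and 5593 bp in control cells, a log2 ratio of 0.63. The difference between the groups was not tested.

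Peaks of the 4 libraries that touched one another were joined into 45 places with H3K27ac, most of which were seen in a single library. ATRA replicate 2 alone held 24 of them, with a median length of 669 bp. Only 5 were present in all 4 libraries, between 3863 and 13911 bp long, and the longest spanned the CLEC7A TSS (chr12:10272568-10286478). Both ATRA libraries and no control library held 3, all in the Dectin-1 group. They lay over exons at the annotated 5′ end of CLEC12A and of its antisense gene CLEC12A-AS1 (chr12:10103014-10104427) and between genes upstream of CLEC7A (chr12:10287362-10288687 and chr12:10289991-10291422). No place was shared by both control libraries without ATRA.

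Stretches of chromosome under H3K27ac peaks in both ATRA libraries and in neither control library were then listed base by base. The Dectin-1 group held 12 such stretches, with 6785 bp in all, and the Dectin-2 group held 0. In the Dectin-2 group ATRA replicate 1 had only 1651 bp under H3K27ac. Some of the 12 adjoined a control peak and were edges of longer peaks, such as 1013 bp (chr12:10097691-10098703) and 563 bp (chr12:10179280-10179842). No stretch had the reverse pattern in either group, and the reverse was not counted over the genome. Over the genome there were 19817 such ATRA-only stretches, with 17.6 Mb in all and a median of 531 bp. No rate per length or per gene window was computed, so these numbers do not place the cluster against the genome. The longest in the cluster was 1558 bp long (chr12:10176231-10177788). It lay in an intron of the noncoding gene ENSG00000256803, and its center was 13784 bp downstream of the CLEC12B TSS and 6271 bp upstream of the CLEC9A TSS, the nearest of a protein-coding gene. Upstream of CLEC7A lay a stretch of 888 bp (chr12:10287789-10288676) with its center 5435 bp before the TSS and a shorter one of 305 bp (chr12:10290099-10290403) 7453 bp before it. At the annotated 5′ end of CLEC12A a stretch of 764 bp (chr12:10103562-10104325) lay 20064 bp before the TSS used here. For H3K4me3 the longest ATRA-only stretches were the 257 bp at the CLEC4E TSS and 155 bp inside CLEC7A (chr12:10281950-10282104). The CLEC7A stretch was an edge that adjoined the peak of control replicate 1.

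The central 300 bases of the longest H3K27ac stretch are shown because it is the place of the cluster where the ATRA libraries differed from the controls over the most bases. They are read on the plus strand of hg19, and capitals mark the same 6 motifs.
ATRA-only H3K27ac stretch (chr12:10176860-10177159, plus strand): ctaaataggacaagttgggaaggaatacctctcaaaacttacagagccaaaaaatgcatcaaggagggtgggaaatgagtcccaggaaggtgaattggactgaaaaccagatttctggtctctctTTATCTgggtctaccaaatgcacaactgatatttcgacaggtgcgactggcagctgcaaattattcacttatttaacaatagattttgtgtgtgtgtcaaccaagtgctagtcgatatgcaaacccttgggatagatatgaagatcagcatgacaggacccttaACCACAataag
It held a GATA and a RUNX match, which 15.0% and 20.9% of the 13054 ATRA-only stretches of at least 300 bp in the genome also hold in their central 300 bases. The retinoic acid receptor half-site letters, found in 22.7% of those, were not in these 300 bases.

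**Figure D4:**
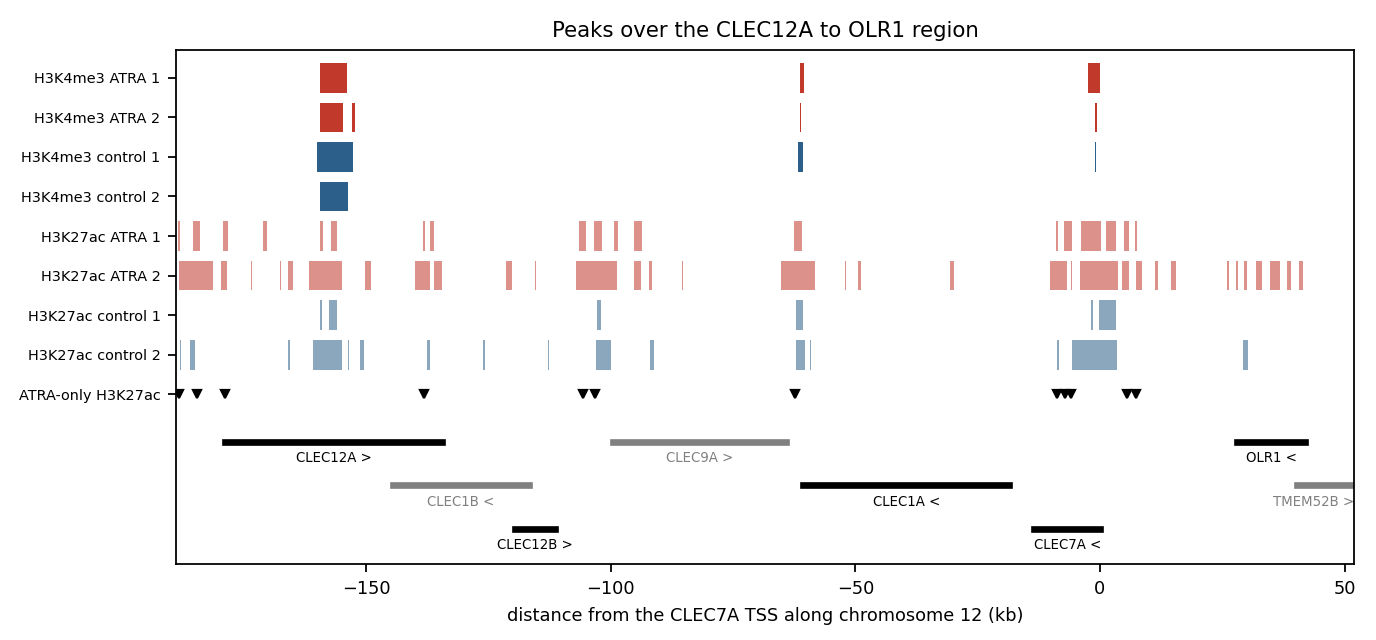
Peaks of each library from CLEC12A to OLR1, by distance from the CLEC7A TSS in kb along chromosome 12, with H3K4me3 in full color, H3K27ac pale, ATRA in red and control in blue. Triangles mark the 12 stretches under H3K27ac in both ATRA libraries and in neither control library, black bars are the 5 members of the Dectin-1 group, gray bars are other protein-coding genes and arrowheads give the strand.

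H3K4me3 and H3K27ac overlapped in part of the cluster. Of the H3K4me3 length in the merged windows, 40.4% and 88.9% also lay under H3K27ac in the ATRA replicates and 31.8% and 83.2% in the control replicates, so the overlap followed the replicate number. Of the H3K27ac length, 23.3% and 8.71% lay under H3K4me3 in the ATRA replicates and 35.8% and 17.7% in the control replicates. At the CLEC12A TSS both marks were present in all 4 libraries of each. The H3K27ac place at this TSS (chr12:10121033-10127926) held 1902 and 6810 bp in the ATRA replicates and 2140 and 6011 bp in the control replicates, so the longer H3K27ac within both pairs belonged to the whole CLEC12A window and not to its TSS.

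Genes of the pathway through which these receptors signal were measured in the same way. Of 15 such genes, 12 had more H3K27ac in both ATRA libraries and 7 had more H3K4me3, and 0 had less of either mark, beside 30.3% and 28.0% of all genes with more. All 15 had a peak of each mark in a library. Among all genes with such a peak, 6085 of 14622 were higher in H3K27ac and 5623 of 13779 in H3K4me3. As shares of the library total, 6 were higher and 2 lower (SYK and VAV3) in H3K27ac, beside 12.9% and 18.5% of all genes. In H3K4me3, 4 were higher and 3 lower (PLCG2, PTPN11 and PTPN6), beside 11.0% and 16.9%. The median log2 ratio of the 15 was 0.85 for H3K27ac and 0.21 for H3K4me3, and 0.14 and 0.043 as shares of the library total. PRKCD, the kinase that links SYK to CARD9, had 23843 and 17387 bp under H3K27ac in ATRA and 3825 and 7429 bp in control cells, a log2 ratio of 1.71. PLCG2, a phospholipase downstream of SYK, had 14720 and 20142 bp against 3047 and 6259 bp, also 1.71. PTPN11 had a log2 ratio of 1.65 in H3K27ac. FCER1G, which encodes the adaptor of the CLEC4D, CLEC4E and CLEC6A proteins, had the largest H3K4me3 ratio of the 15, with 11266 and 11652 bp in ATRA and 7766 and 3656 bp in control cells (log2 ratio 0.89), and 14429 and 13802 bp against 2848 and 5786 bp in H3K27ac (1.51). CARD9, TYROBP and VAV1 had H3K4me3 ratios of 0.42, 0.42 and 0.41.

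The remaining C-type lectin genes gave smaller counts. Of 15 neighbors on chromosome 12, CLEC9A alone had more H3K27ac in both ATRA libraries, with a log2 ratio of 1.42, beside 30.3% of all genes. Within both pairs 6 of the 15 were higher, beside 43.4%. As shares of the library total CLEC9A was higher and CD69 lower, beside 12.9% and 18.5% of all genes. In H3K4me3, 1 of the 15 was higher and 1 lower, beside 28.0% and 2.64% of all genes. KLRD1, a natural killer cell lectin, was higher with 942 and 1150 bp in ATRA and 864 and 0 bp in control cells (0.51). Its window was 123551 bp long, and KLRD1 had no H3K4me3 peak at its TSS in any library. The window of CLEC1B, the podoplanin receptor, was lower with 678 and 548 bp against 1798 and 789 bp (−0.51). This length was the downstream end of the CLEC12A place (chr12:10122701-10130451), which the CLEC1B window shares. It is thus no separate result, and CLEC1B had no H3K4me3 peak at its TSS in any library. Of 17 C-type lectin genes on other chromosomes, 5 had more H3K27ac in both ATRA libraries and 0 had less, which is near the 30.3% of all genes with more. As shares of the library total, 4 were higher, beside 12.9% of all genes, CD302 was no longer separated and MRC2 was lower, beside 18.5%. CLEC17A had 8068 and 10694 bp in ATRA cells and was listed at 0 bp in both control libraries, and CLEC4G had 1202 and 1819 bp and was likewise listed at 0 bp in the controls. Neither had an H3K27ac peak at its TSS in any library. CD302 and CLEC3B had log2 ratios of 1.82 and 1.65. In H3K4me3, CLEC5A, a myeloid receptor that signals through the adaptor encoded by TYROBP, had 2138 and 1719 bp in ATRA and 517 and 0 bp in control cells (1.22), and CD302 had a ratio of 0.17. As shares of the library total CLEC5A alone was higher in H3K4me3, beside 11.0% of all genes, and LY75 and MRC2 were lower, beside 16.9%.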

How the data were processed

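H3K4me3 and H3K27ac ChIP-seq was analyzed in HL-60 cells given ATRA or ethanol, with 2 replicates each. After adapter removal the authors mapped the reads with Bowtie (hg19), and MACS2 gave broad peaks for each library. The deposited files list peak positions with 3 scores. A fold ratio and a −log10 p were left out, as many of their entries are impossible for such scores. The deposited −log10 q, used as a stricter threshold of 5 only, hardly correlated between replicates over shared peaks (Spearman's rho 0.0599 to 0.181).

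The members and lists were chosen with earlier results of these data known. Genes and canonical TSS came from GENCODE release 44 mapped to GRCh37. The length under peaks was summed in each gene with 10 kb on each side and set as a log2 ratio of means, each with 1000 bp added. A gene was called higher or lower where both ATRA libraries exceeded, or fell short of, both control libraries. The share of all protein-coding genes is given beside these counts, except for those of most alternatives. A TSS peak is one within 1 kb of the TSS. No p-value was computed for single genes, since 2 against 2 libraries allow no exact two-sided p below 0.33.

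Named genes were all 10 members, the longest stretches of each group, and the up to 4 separated genes with the largest ratios of each other list. The rule for printing promoters (a TSS peak in an ATRA library) covered 9 members, of which CLEC4E and CLEC12A are printed, and some promoter sequences are not reported here. Equal replicate numbers go with an equal tag in the peak names, so the numbers were read as pairs. Over 75918 bins of 40 kb their deviations from the group means correlated (Pearson r 0.557 for H3K27ac and 0.223 for H3K4me3). These lengths were not scaled, and both H3K27ac libraries numbered 2 had more peaks than those numbered 1. The correlation therefore cannot decide the pairing. The scripts were tested on simulated peak lists. Alternatives were the window, the scaling, the threshold, peak numbers, the pseudocount, the TSS definition, pairing and leaving out each library, and, added after seeing the data, peaks of at least 1 kb. Python 3.11.15, pandas 2.3.3, pysam 0.24.0 and bedtools 2.31.1 were used.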

Additional observations from a re-analysis of the deposited data

How the results depend on the processing

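The depth of the libraries is unknown, and with 2 libraries per group single libraries decide much of the result. The count of members with more H3K27ac in both ATRA libraries was 1. It was 0 in the gene body alone and with −log10 q of at least 5, 4 with 50 kb on each side, and 1 to 9 on leaving out single libraries, with 9 without ATRA replicate 1 and 5 without control replicate 2. The share of all genes was not computed for these settings, so these counts have no background. With the replicate block, that is within pairs, the count was 4, beside 43.4% of all genes. The H3K27ac summed log2 ratio of 1.17 was 0.94 in the gene body alone, 1.31 with 50 kb on each side, 0.37 as a share of the library total, 1.74 with −log10 q of at least 5 and 0.90 with a pseudocount of 10000 bp. It ranged from 0.19 without ATRA replicate 2 to 2.21 without control replicate 2, and was 0.57 without control replicate 1 and 1.75 without ATRA replicate 1. With the replicate block it was 1.19, and the H3K4me3 ratio was 0.19. The count of members with H3K27ac gained at the TSS was 0 in all settings except 6 without ATRA replicate 1. For TSS gains of either mark, no share of all genes was computed under the alternatives.

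The count of members with more H3K4me3 was 2 in the main setting, 0 with 50 kb on each side and with peaks of at least 1 kb, and 1 by the number of peaks. These alternatives again have no share of all genes beside them. The replicate block left the count at 2, beside 37.4% of all genes. The CLEC4E peak of ATRA replicate 2 is shorter than 1 kb, so with that minimum the count of H3K4me3 gained at the TSS was 0, and without control replicate 1 it was 2, with CLEC7A added. The H3K4me3 summed log2 ratio of 0.23 turned to −0.27 without ATRA replicate 1 and −0.038 without control replicate 2, and was 0.59 without ATRA replicate 2 and 0.55 without control replicate 1. Of the alternatives for the log2 ratios of single members, 60 of H3K27ac and 31 of H3K4me3 moved by less than the spread between replicates and 30 and 14 moved by more, leaving out the 5 members without H3K4me3. None turned the sign of a called value, but the H3K27ac ratio of CLEC12B (1.31) fell to 0 with −log10 q of at least 5. Values that were not called did turn sign. In H3K27ac, OLR1 went from 1.42 to −0.59 without ATRA replicate 2, and CLEC4D from 0.033 to −0.80 with that q threshold. CLEC7A went from 0.70 to −0.041 as a share of the library total. Except where stated, the cause of a change was not tested.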
